A study of Mus musculus with 6 samples.

Results

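The 10 genes described here are markers of neutrophils, the short-lived white blood cells that enter injured tissue first, measured in isolates of renal tubular epithelial cells. They are S100a8, S100a9, Csf3r, Mmp8, Mmp9, Ngp, Camp, Retnlg, Clec4d and Clec4e. Each was taken as the array row annotated with its symbol, and all 10 had exactly 1 such row, among 22206 rows in all. A row, or transcript cluster, pools the probes of about 1 gene into a single signal.

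The mouse kidneys were studied 24 h after an ischemia of 30 min was released, a standard way to injure the kidney acutely. One group of 3 arrays came from mice given vehicle (IR) and the other group of 3 from mice given PT2385 (IRPT), an inhibitor of the hypoxia-inducible factor HIF-2α. PT2385 was injected at 10 mg/kg, once 16 h ahead of surgery and again 1, 8 and 20 h later, and the treatment text also spells the injected compound PT2384. The labels name no strain, age or sex, every sample had ischemia, and the tubular cells were released with collagenase with no cell sorting named. Whether each sample is a different animal is not labelled, so the p-values rest on a spread between samples that could be technical. The comparison asks which transcripts differed between injured tubular isolates of the treatment arms.

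Neutrophils reach a reperfused kidney through the peritubular capillaries, drawn by chemokines such as CXCL1 and CXCL2 that act on the receptor CXCR2. Their proteins are packed into granules in an order that follows their maturation in the bone marrow: primary granules with myeloperoxidase and elastase first, then secondary granules with lactoferrin, cathelicidin and neutrophilic granule protein, then gelatinase granules with MMP9. Mature cells are rich in S100A8 and S100A9, which form the calcium-binding heterodimer calprotectin, and carry the receptor for the growth factor G-CSF, encoded by Csf3r.

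Several of these genes are transcribed in myeloid cells under C/EBP and PU.1 transcription factors. The sequences below are the 250 bases before the RefSeq gene start (GRCm38.p6) of S100a8, S100a9 and Csf3r, shown because these 3 genes had the largest differences between the groups. They run 5′ to 3′ on the strand of the gene, at chr3:90668821-90669070 (plus strand), chr3:90695722-90695971 (minus strand) and chr4:126024409-126024658 (plus strand). Capitals mark motif matches, searched on both strands. The loose core searched for C/EBP factors was TTNNGNAA. That for PU.1, a factor of the ETS family, was GAGGAA. The box at which many tissue-specific promoters bind the basal machinery was searched as TATAAA.
S100a8: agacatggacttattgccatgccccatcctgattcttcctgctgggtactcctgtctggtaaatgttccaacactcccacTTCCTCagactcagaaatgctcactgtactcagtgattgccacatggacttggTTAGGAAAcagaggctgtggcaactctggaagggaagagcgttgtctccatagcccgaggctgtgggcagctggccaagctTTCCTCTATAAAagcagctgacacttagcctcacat
S100a9: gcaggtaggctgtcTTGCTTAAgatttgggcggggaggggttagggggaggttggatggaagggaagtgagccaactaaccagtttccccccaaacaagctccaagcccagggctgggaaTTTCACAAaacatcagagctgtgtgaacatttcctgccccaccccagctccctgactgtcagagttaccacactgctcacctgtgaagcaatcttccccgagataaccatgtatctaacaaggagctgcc
Csf3r: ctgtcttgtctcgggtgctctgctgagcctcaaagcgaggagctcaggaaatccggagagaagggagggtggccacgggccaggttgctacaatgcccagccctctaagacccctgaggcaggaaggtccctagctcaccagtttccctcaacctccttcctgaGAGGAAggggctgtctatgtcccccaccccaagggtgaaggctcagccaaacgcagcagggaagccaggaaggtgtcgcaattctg
S100a8 held all 3 motifs, with the C/EBP match 117 to 110 bases and the TATA box 30 to 25 bases before the start. Its second PU.1 match, 36 to 31 bases before the start, adjoined the TATA box without overlapping it. S100a9 held 2 C/EBP matches, and Csf3r held 1 PU.1 match 86 to 81 bases before the start.

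Promoter sequences were at hand for 9 of the 10 genes, all except Mmp9. The C/EBP letters occurred in 7 of these 9, against 36.8% of all 32851 promoter windows of the same length. The PU.1 letters occurred in 5 of 9 (23.3% of all windows) and the TATA box in 2 of 9, S100a8 and Clec4e (12.4% of all windows). A match describes the letters and is not a binding site shown in these cells. Some members also share a locus: S100a8 and S100a9 lie next to each other on chromosome 3, with 0 genes between them in the RefSeq table. The lectin receptor genes Clec4d and Clec4e are likewise neighbours on chromosome 6.

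**Figure D1:**
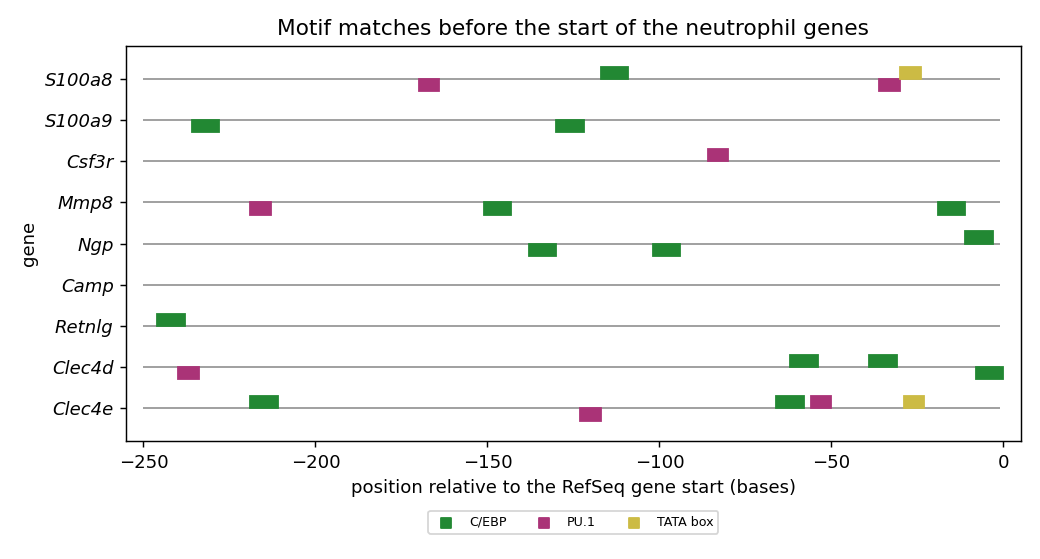
Positions of motif matches in the 250 bases before the RefSeq start of 9 neutrophil genes (horizontal axis, bases relative to the start; 1 line per gene). Boxes above a line match on the strand of the gene and boxes below it on the opposite strand; C/EBP matches lie in 7 of the 9 genes, PU.1 matches in 5 and a TATA box in S100a8 and Clec4e.

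The arrays were near a common scale before any step taken here, with medians over the clusters of 6.196 to 6.199 log2 with vehicle and 6.235 to 6.248 with PT2385. Tubular markers, which fit the labelled cell type, were bright in every array, among them Umod, the uromodulin gene of the thick ascending limb (12.44 to 12.93), and Lrp2, the megalin gene of the proximal tubule (11.12 to 11.94). Genes of other cells were measured beside them, such as the leukocyte phosphatase gene Ptprc (6.49 to 7.55). The Y-linked genes Eif2s3y, Uty and Kdm5d separated the groups in all 6 arrays, with Eif2s3y at 9.09 to 9.28 with vehicle and 3.04 to 3.34 with PT2385. For every difference below, an effect of PT2385 cannot be told apart from a difference in the sex of the mice. Fewer neutrophils, less of these transcripts per neutrophil and less of them from other cells also cannot be told apart in such bulk samples.

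The 10 neutrophil transcripts mostly had lower signals with PT2385, and the size of the difference varied widely between them. Of the 10 genes, 8 had a negative difference (46.5% of all clusters did). For 6 of them every PT2385 array lay below every vehicle array, against 9.13% of all clusters, and 20.7% of clusters had groups that did not overlap in either direction. Only Csf3r passed the threshold of 0.05 for the adjusted p of limma over all 22206 clusters, and 0 genes passed in the other direction. Of all clusters 0.829% passed, 0.495% lower and 0.333% higher. At an unadjusted limma p under 0.05 there were 6 of the 10, all lower, against 6.54% of all clusters called lower at that level and 14.5% in either direction. The median difference of the 10 genes was -0.46 log2 units, and that of all clusters was 0.02.

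**Figure D2:**
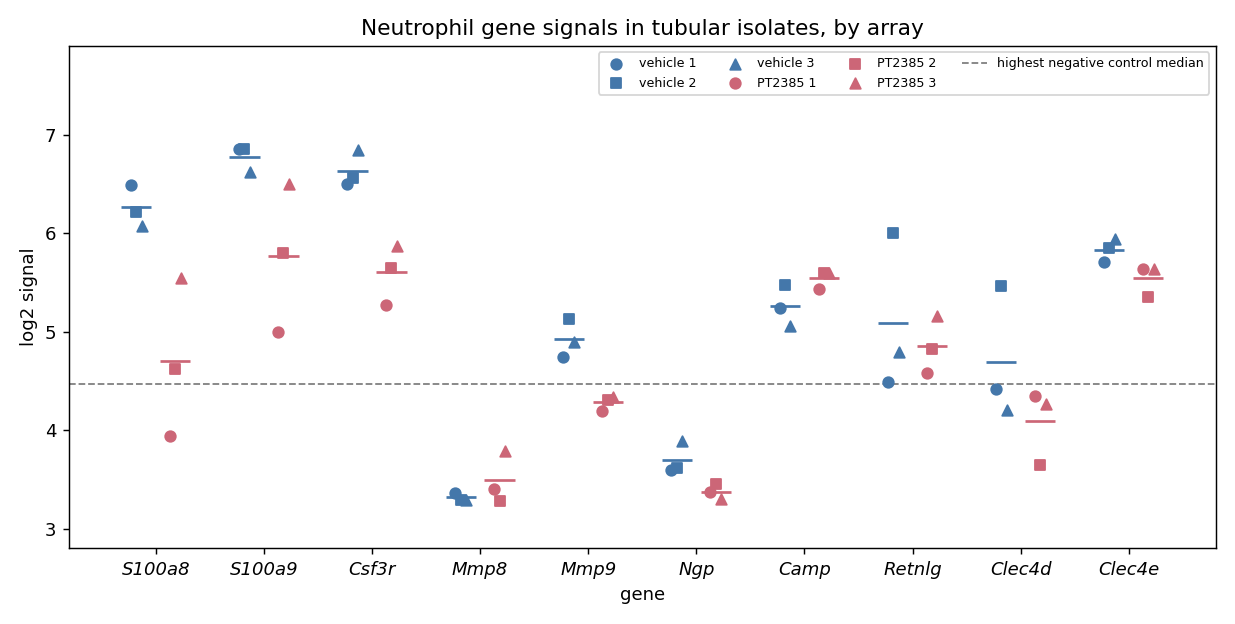
Log2 signal (vertical axis) of the 10 neutrophil genes (horizontal axis) in each of the 3 vehicle arrays (blue) and 3 PT2385 arrays (red); marker shape gives the replicate, horizontal bars the group means and the dashed line the highest median that the negative control rows reached in any array (4.47). S100a8, S100a9, Csf3r, Mmp9, Ngp and Clec4e have all red points below all blue ones, while Mmp8 and Ngp lie under the dashed line in every array.

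The signals were modest for an array of this kind. All values of the 10 genes fell between the dimmest (2.41) and the brightest (7.47) value of the 23 background control rows, whose brightness depends on base composition, so no single level separates detected from undetected. Against the highest median of the 5222 negative control rows in any array, 4.47, the vehicle mean of 8 genes was higher and that of 2 genes, Mmp8 and Ngp, was lower. In the PT2385 group the means of 6 genes were higher and those of 4 were lower. That level is a median, so many negative control rows were brighter than it. The highest share of these rows under any of the 10 genes in an array was 93.2%, for Csf3r with vehicle. Csf3r with PT2385 lay above 70.8 to 83.3% of them. Camp lay above 66.1 to 74.0% with vehicle and 73.6 to 78.6% with PT2385.

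S100a8 and S100a9 encode the subunits of calprotectin, an abundant cytosolic protein of neutrophils that also binds zinc and signals through TLR4 once released. S100a8 had log2 signals of 6.49, 6.21 and 6.07 in vehicle replicates 1, 2 and 3 and of 3.94, 4.62 and 5.54 in PT2385 replicates 1, 2 and 3. The groups did not overlap, and the PT2385 arrays were spread far more widely than the vehicle arrays. The means were 6.26 ± 0.21 and 4.70 ± 0.80 (SD, n = 3 each), a difference of -1.56 (SE 0.34). Only 2 of the 3 PT2385 arrays were above 4.47, so the fold is given with PT2385 replicate 1 set to that level, which makes the signal 2.60-fold lower. With limma's adjusted p = 0.0972, S100a8 did not pass the threshold.

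S100a9 had 6.85, 6.85 and 6.62 with vehicle and 5.0, 5.80 and 6.50 with PT2385. PT2385 replicate 3 lay just under the lowest vehicle array, and PT2385 replicate 1 lay far below it. The difference was -1.01 (SE 0.31, limma adjusted p = 0.213), 2.01-fold lower. The calprotectin genes ranked the PT2385 arrays alike, and over the 6 arrays their signals had a Pearson r of 0.98, given as a description of arrays that share the group difference. Without PT2385 replicate 3 the differences were -1.98 for S100a8 (limma adjusted p = 0.00928) and -1.37 for S100a9 (limma adjusted p = 0.0414), so both passed without this 1 array. Without PT2385 replicate 1 they were -1.18 (limma adjusted p = 0.0969) and -0.62 (limma adjusted p = 0.22). S100a8 also passed with array weights (limma adjusted p = 0.0286). In all, S100a8 passed under 2 of 15 alternatives and S100a9 under 1 of 16, with limma adjusted p up to 0.332 and 0.481.

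Among the receptors, Csf3r, through which G-CSF drives the production and survival of neutrophils, fell in the PT2385 group. Its signals were 6.50, 6.56 and 6.84 with vehicle and 5.27, 5.65 and 5.87 with PT2385. Every PT2385 array was lower than every vehicle array by a clear margin, and the spread within each group was small. The means were 6.63 ± 0.18 and 5.60 ± 0.30 (SD, n = 3 each), a difference of -1.04 (SE 0.16, limma adjusted p = 0.0326) and a 2.05-fold lower signal. The call was lost without vehicle replicate 1, 2 or 3 (limma adjusted p = 0.0971, 0.116 and 0.112) and without PT2385 replicate 2 (limma adjusted p = 0.150), while the difference stayed between -1.17 and -0.87 over all alternatives. The gene of its ligand, Csf3, had 5.86 ± 0.09 and 5.88 ± 0.08 (SD, n = 3 each), a difference of 0.02 (SE 0.10, limma adjusted p = 0.959).

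Clec4e encodes Mincle and Clec4d encodes MCL, C-type lectin receptors of neutrophils and macrophages that sense glycolipids and products of dead cells and signal through the adaptor FCER1G. Clec4e had 5.71, 5.85 and 5.94 with vehicle and 5.64, 5.35 and 5.64 with PT2385. The groups did not overlap, but the gap between the nearest arrays was small, and the difference of -0.29 (SE 0.12, limma adjusted p = 0.309) did not pass. It was -0.19 without PT2385 replicate 2 (limma adjusted p = 0.641). Clec4d had 4.42, 5.46 and 4.20 with vehicle and 4.35, 3.65 and 4.26 with PT2385. Its groups overlapped through vehicle replicate 3, which lay below 2 of the PT2385 arrays, and vehicle replicate 2 stood far above the other arrays. The difference of Clec4d was -0.60 (SE 0.32, limma adjusted p = 0.424) and shrank to -0.22 without vehicle replicate 2 and to -0.38 without PT2385 replicate 2.

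The granule genes differed in direction and in level. Mmp9, the gelatinase that degrades basement membrane collagen, had 4.74, 5.13 and 4.89 with vehicle and 4.19, 4.31 and 4.34 with PT2385. Every PT2385 array was lower than every vehicle array, and each of them was under the negative control level of 4.47. The difference was -0.64 (SE 0.12, limma adjusted p = 0.0575), just outside the threshold, and the signal was at least 1.36-fold lower against that level. Mmp9 passed under 4 of 15 alternatives, among them median-centred arrays (limma adjusted p = 0.0445). Over all 15 its limma adjusted p ran from 0.031 to 0.233.

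Mmp8, the neutrophil collagenase, stayed at the bottom of the scale in both groups, with 3.36, 3.29 and 3.29 with vehicle and 3.40, 3.28 and 3.79 with PT2385. Ngp, the cathelicidin-related granule protein made by maturing neutrophils, had 3.59, 3.61 and 3.89 against 3.37, 3.45 and 3.30. Both genes lay under 4.47 in all 6 arrays, so no fold is given for them, although the Ngp arrays did not overlap between the groups. The differences were 0.17 (SE 0.14) for Mmp8 and -0.32 (SE 0.11) for Ngp, with limma adjusted p = 0.597 and 0.254. The Mmp8 difference was 0.02 without PT2385 replicate 3, its highest array.

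Camp, which encodes the antimicrobial cathelicidin, was the other member with a positive difference. It had 5.24, 5.47 and 5.06 with vehicle and 5.43, 5.59 and 5.59 with PT2385. Vehicle replicate 2 lay within the PT2385 range, and the difference of 0.28 (SE 0.12, limma adjusted p = 0.347) did not pass. It was 0.18 without vehicle replicate 3.

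Retnlg, a resistin-like protein gene of mature neutrophils, had 4.49, 6.00 and 4.79 with vehicle and 4.58, 4.82 and 5.16 with PT2385. Vehicle replicate 2 was more than 1 log2 unit above the other vehicle arrays, and the remaining values of both groups were interleaved. The difference was -0.24 (SE 0.35, limma adjusted p = 0.784) and turned to 0.21 without vehicle replicate 2. Retnlg and Clec4d were both highest in that array (Pearson r of 0.75 over the 6 arrays), whereas Csf3r was highest in vehicle replicate 3.

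**Figure D3:**
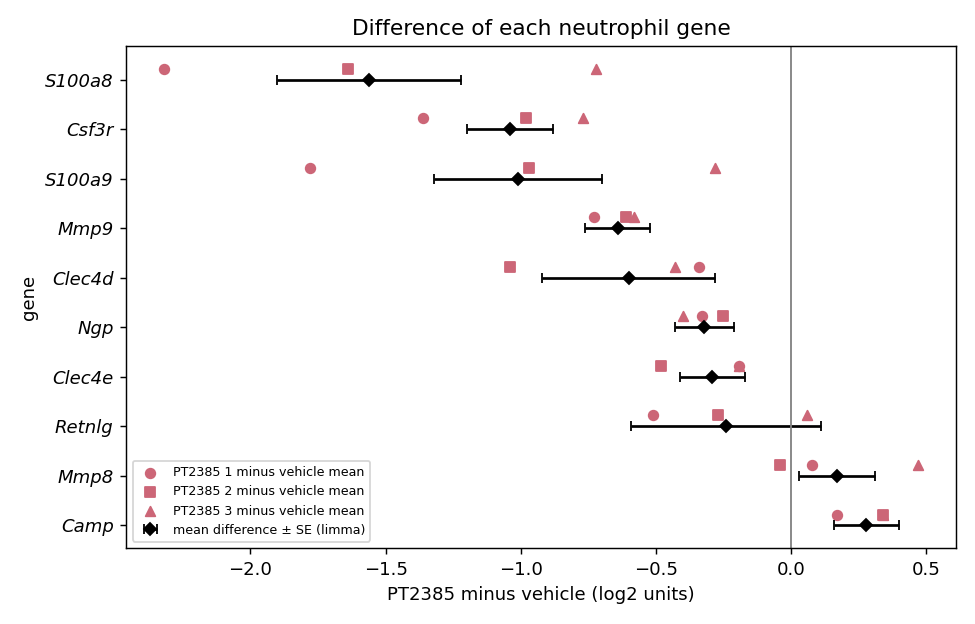
Difference in log2 signal, PT2385 minus vehicle (horizontal axis), for each neutrophil gene (vertical axis): diamonds with bars show the mean difference and its SE from limma, and red symbols show each PT2385 array minus the vehicle mean. S100a8 spans -2.32 to -0.72 over the 3 PT2385 arrays, Mmp9 only -0.73 to -0.58, and Mmp8 and Camp have mean differences above 0.

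Array by array, the lower values came from different members. Relative to the vehicle mean, PT2385 replicate 1 was lower for 8 of the 10 genes, replicate 2 for 9 and replicate 3 for 7. The largest departures of replicate 1 were at S100a8 (-2.32), S100a9 (-1.78) and Csf3r (-1.36). In replicate 3 the same genes departed by -0.72, -0.28 and -0.77, so Csf3r and not S100a9 was among its lowest. Replicate 2 was the lowest of the 3 PT2385 arrays for Clec4d (-1.04) and Clec4e (-0.48). The median over the 10 genes was -0.43, -0.55 and -0.34 in PT2385 replicates 1, 2 and 3.

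Other neutrophil genes were read from lists for comparison. Of 7 primary granule and precursor genes 0 passed the threshold in limma, 0 had an unadjusted p under 0.05, and their median difference was 0.13. Only 1 of the 7 had a negative difference. The elastase gene Elane had 6.33 ± 0.09 in the vehicle group and 6.59 ± 0.35 in the PT2385 group, and the proteinase 3 gene Prtn3 had 5.48 ± 0.10 and 5.64 ± 0.02 (SD, n = 3 each). The myeloperoxidase gene Mpo lay between 4.17 and 4.47 in the 6 arrays, and the lactoferrin gene Ltf, of the secondary granules, between 3.49 and 3.92.

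Of 12 measured genes of the secondary and tertiary granules 1 fell and 1 rose past the limma threshold, around a median of -0.02. Negative differences were found for 6 of the 12. At an unadjusted limma p under 0.05 there were 3 lower and 2 higher genes (14.5% of all clusters in either direction). Chil3, a chitinase-like gene of neutrophils and alternatively activated macrophages, had 6.13, 6.10 and 4.99 with vehicle and 3.25, 3.59 and 4.23 with PT2385. The groups did not overlap, and its difference was -2.05 (SE 0.33, limma adjusted p = 0.0376), at least 2.41-fold lower against the negative control level. Its call was lost with the replicate block, with a trend and robust fit and without vehicle replicate 1 or 2 or PT2385 replicate 1 or 2 (limma adjusted p = 0.0519 to 0.198). Arg2, a mitochondrial arginase that kidney tubules also express, rose by 1.53 (SE 0.20, limma adjusted p = 0.0148), and lost the call without PT2385 replicate 2 (limma adjusted p = 0.101). Lcn2, a secondary granule gene that injured tubules express strongly, had 12.64 ± 0.19 and 12.28 ± 0.74 (SD, n = 3 each), near the top of the array's scale.

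Of 20 measured genes of mature neutrophils 0 passed the limma threshold and 14 had a negative difference, with a median of -0.11. At an unadjusted limma p under 0.05 there were 2 of the 20, against 14.5% of all clusters. These 2 were the stefin gene Stfa2l1 (-0.56, SE 0.10, limma adjusted p = 0.0575) and Wfdc21 (-0.23, SE 0.09, limma adjusted p = 0.325), both with group means under 4.47. Stfa2l1 passed under 4 of 14 alternatives (median-centred arrays, quantile normalization, cyclic loess and array weights), with limma adjusted p = 0.0345 to 0.206 over all 14. Cxcr2, the main chemokine receptor of neutrophils, had 5.64, 5.66 and 5.74 with vehicle and 5.26, 5.52 and 5.88 with PT2385, and these overlapped. The summed log2 level of the 20 genes ranged from 101.2 to 103.7 with vehicle and from 100.2 to 101.8 with PT2385.

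The genes that call neutrophils into tissue were lower at the median (-0.27 over 15 genes), with 0 past the limma threshold. Of the 15, 3 had an unadjusted limma p under 0.05, against 14.5% of all clusters. The median of the 15 genes was -0.13 without vehicle replicate 3 and -0.04 without PT2385 replicate 1. Their smallest p-values were at the cytokine gene Il6 (-0.89, SE 0.22, limma adjusted p = 0.135) and the platelet chemokine gene Ppbp (-0.44, SE 0.15, limma adjusted p = 0.245), both with group means under 4.47. The chemokine gene Cxcl1 had 7.10, 7.24 and 7.31 with vehicle and 6.09, 6.65 and 7.87 with PT2385, and Cxcl2 had 5.66, 5.56 and 6.21 against 4.95, 5.09 and 6.21. In both chemokine genes PT2385 replicate 1 was lowest and replicate 3 highest among the PT2385 arrays, the order seen for S100a8 and S100a9. The mean deviation of the tubular marker list ran the other way, with 0.447, 0.190 and -0.0713 in PT2385 replicates 1, 2 and 3. The part of either in the spread of the calprotectin genes was not tested.

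Receptors, adaptors and inhibitors of the member proteins lay around a median of -0.06 over 15 genes, with 0 past the limma threshold. An unadjusted p under 0.05 was found for 1 higher and 1 lower gene, a share near that of all clusters. The receptor gene Ager, which encodes the S100 protein receptor RAGE, had a difference of 0.36 (SE 0.13, limma adjusted p = 0.273). Timp3, an inhibitor of matrix metalloproteinases, had -0.41 (SE 0.15, limma adjusted p = 0.279).

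Many of the 10 genes are also read in monocytes and macrophages, whose markers were therefore set beside them. Of 14 measured macrophage and monocyte markers 1 fell past the limma threshold, with a median of -0.02. This was the lysozyme gene Lyz2, which neutrophils express too, with 8.95, 8.32 and 8.45 with vehicle and 7.30, 7.34 and 7.52 with PT2385. Its difference was -1.19 (SE 0.16, limma adjusted p = 0.0202). It no longer passed without vehicle replicate 3 or PT2385 replicate 2 (limma adjusted p = 0.0635 and 0.131). The macrophage growth factor receptor gene Csf1r had 6.98 ± 0.08 and 6.89 ± 0.15 (SD, n = 3 each). The monocyte chemokine receptor gene Ccr2, picked out after its values were seen, had 6.97, 5.76 and 5.97 against 5.15, 4.91 and 5.19, a difference of -1.15 (SE 0.28, limma adjusted p = 0.127). The summed log2 level of the 14 markers ranged from 91.6 to 96.2 with vehicle and from 90.7 to 91.7 with PT2385. Vehicle replicate 1 stood apart, with a mean deviation of 0.278 against -0.0489 and 0.00716 in vehicle replicates 2 and 3. Without vehicle replicate 1 the list median was 0.01 and the difference of Ccr2 was -0.78.

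Of 16 measured genes shared by leukocytes all 16 had a negative difference (46.5% of all clusters did), with a median of -0.28 and 0 past the limma threshold. At an unadjusted limma p under 0.05 there were 6 of the 16, all lower, against 6.54% of all clusters called lower at that level. Vehicle replicate 1 stood apart, with a mean deviation over the list of 0.454 against 0.0639 and -0.0434 in vehicle replicates 2 and 3. Without it the median was -0.12 and 12 of the 16 differences were negative, and that of Ptprc, the common leukocyte antigen CD45, went from -0.47 to -0.24. Itgam, the integrin subunit CD11b of neutrophils and macrophages, had 7.41, 6.95 and 7.0 with vehicle and 5.75, 6.18 and 6.57 with PT2385, a difference of -0.95 (SE 0.21, limma adjusted p = 0.0974). It passed with array weights and without PT2385 replicate 3 (limma adjusted p = 0.0348 and 0.0405). Plek, a platelet and leukocyte signalling gene, had -0.52 (SE 0.14, limma adjusted p = 0.156). The summed log2 level of this list was 104.2 to 112.2 with vehicle and 102.3 to 102.6 with PT2385. How far fewer leukocytes of any kind account for the lower neutrophil genes was not tested.

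The lists of other cells had medians above 0, and 0 of their genes passed the limma threshold with the values as deposited. The median was 0.09 over 10 lymphocyte markers, 0.12 over 7 markers of eosinophils, mast cells and basophils, and 0.08 over 4 red cell and platelet markers, with 0, 1 and 1 genes at an unadjusted p under 0.05. It was 0.11 over 9 endothelial, 0.14 over 8 fibroblast and 0.04 over 5 podocyte markers, with 0, 2 and 1 such genes. Of all clusters 14.5% had such a p in either direction. The podocyte median turned to -0.01 with median-centred arrays and to -0.02 without PT2385 replicate 3, and the endothelial median to -0.01 without vehicle replicate 3. The genes of smallest p were Cd3d (0.33) and Cd3g (-0.20) for lymphocytes, Mcpt8 (0.34) and Epx (0.20) for eosinophils, mast cells and basophils, Itga2b (0.30) and Gp9 (0.10) for platelets, and Plvap (0.34) and Tek (0.20) for endothelium. For fibroblasts they were Lum (0.45) and Dcn (0.51), and for podocytes Ptpro (-0.35) and Wt1 (0.27). The lowest differences were between -0.35 and -0.16 in these 6 lists.

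The 12 tubular markers had a median of 0.28 and 6 genes at an unadjusted p under 0.05, all higher (14.5% of all clusters in either direction). The collecting duct water channel gene Aqp2 had 9.18, 9.99 and 9.72 with vehicle and 10.50, 10.93 and 10.77 with PT2385, groups that did not overlap. Its difference was 1.10 (SE 0.20, limma adjusted p = 0.0552), and it passed with the replicate block (limma adjusted p = 0.00917) and under 6 of 16 alternatives in all. Slc12a3, the salt transporter gene of the distal convoluted tubule, differed by 0.55 (SE 0.13, limma adjusted p = 0.127) and passed under 2 of 16. The list's highest and lowest differences, picked out after their values were seen, were at Slc12a1, the salt transporter gene of the thick ascending limb (1.5, SE 0.37, limma adjusted p = 0.130), and at the proximal phosphate transporter gene Slc34a1 (-0.15, SE 0.30, limma adjusted p = 0.847). Slc12a1 passed with array weights and without PT2385 replicate 3 (limma adjusted p = 0.0474 and 0.0379). It had 11.75, 10.88 and 10.16 in PT2385 replicates 1, 2 and 3, the reverse of the order of the calprotectin genes, and the part of tubular RNA in the neutrophil values was not tested.

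**Figure D4:**
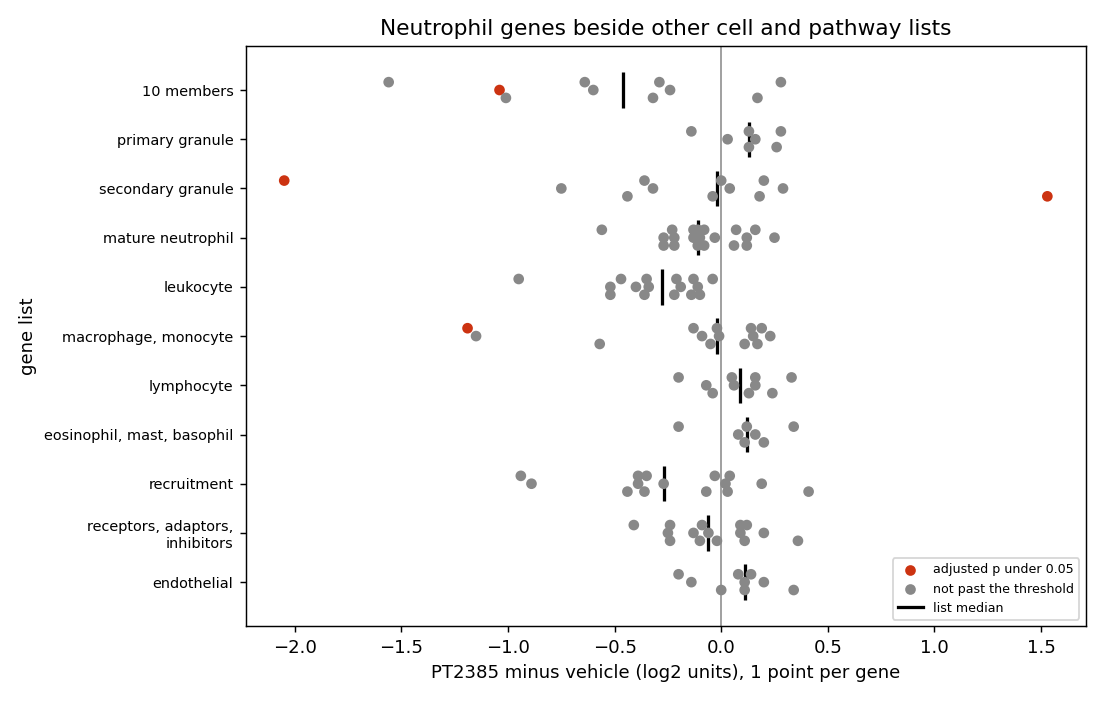
Difference in log2 signal, PT2385 minus vehicle (horizontal axis), for each gene of 11 lists (vertical axis); red points passed an adjusted p of 0.05 in limma over all clusters and black bars mark list medians. The median is -0.46 for the 10 neutrophil members, -0.28 for leukocyte genes and -0.27 for recruitment genes, and it lies between -0.11 and 0.13 for the other lists shown.

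The mean profile of the 10 genes, each taken relative to its own mean, was 0.15, 0.46 and 0.17 with vehicle and -0.47, -0.33 and 0.01 with PT2385. Among 978 other genes whose signal ranged over at least 1 log2 unit, the 5 with the most similar profile over the 6 arrays were Dusp5, a MAP kinase phosphatase gene (Pearson r of 0.988), the acetyltransferase gene Nat2 (0.986), Cd44, an adhesion receptor gene (0.986), the aldehyde dehydrogenase gene Aldh1a7 (0.985) and the kinase gene Mapk6 (0.983). These values describe 6 arrays that fall into groups, and no p was computed for them. Of these 5 only Aldh1a7 passed the limma threshold (-1.25, SE 0.22, limma adjusted p = 0.0476), and its call was lost under 6 of 16 alternatives.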

How the data were processed

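Tubular cells were isolated from mouse kidneys and their total RNA was hybridised to Affymetrix whole-transcript arrays, per the labels' protocols. The deposited values are log2 signals per transcript cluster and array, and the submitters' processing notes list Transcriptome Analysis Console, with no version. How background, summarisation and normalization were handled is not stated there. Samples labelled IRPT were read as PT2385-treated and those labelled IR as vehicle-treated. Of 28846 rows, 6640 control rows were left out and 22206 clusters tested, 19572 of them with 1 gene symbol. The comparison used limma 3.58.1 under R 4.3.3 (lmFit and eBayes, treatment only, 2-sided), with Benjamini-Hochberg adjustment over all clusters. The fit was tested on simulated data. The number of arrays limits the precision, and no pair of arrays shared over 0.234% of values.

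Folds set PT2385 arrays under 4.47, the highest median of the negative control rows in any array, at that level, and read "at least" where all 3 were under it. All 10 genes were named, and from each other list up to 4 genes that passed, by size of difference, or else the 2 of smallest p. Cxcl1, Cxcl2, Csf3 and Lcn2 were added for their role and Ccr2, Slc12a1 and Slc34a1 for their values. Mpo, Ltf, Cxcr2, Ptprc, Csf1r, Umod and Lrp2 were added as cell type markers. The genes, lists and alternatives were chosen with earlier results of these data known. Promoter windows came from RefSeq (GRCm38.p6), and matches were counted on both strands.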

Additional observations from a re-analysis of the deposited data

How the results depend on the processing

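Of 148 values of the 10 genes under alternatives, 136 kept their direction and their side of the threshold, 4 lost the call (Csf3r), 7 gained one (S100a8, S100a9 and Mmp9) and 1 reversed (Retnlg, from -0.55 to 0.21 without single arrays, the latter without vehicle replicate 2). Cxcr2 ran from -0.29 to 0.02 and Lcn2 from -0.63 to 0.06 without single arrays, both above 0 without PT2385 replicate 1. Slc34a1 ran from -0.48 to 0.20, above 0 without PT2385 replicate 3. Of the 10 genes, 2 passed with median-centred arrays, quantile normalization or cyclic loess, 3 with array weights and 0 with a filter at the median of all clusters, which left 1 gene. Leaving out single arrays gave 0 to 3. Clusters past the threshold numbered 456 with array weights and 42 to 179 without single arrays. The members' median was -1.01 with that filter, -0.64 over the 7 genes above the negative control level in at least 3 arrays, and -0.64 to -0.32 without single arrays. Correlations of same-numbered deviations were 0.138, 0.0252 and -0.0587. With 3 arrays per group, whose deviations are tied to each other, they cannot settle whether the replicate numbers pair the samples. The replicate block gave 178 clusters and 1 member, Csf3r. The mean of several clusters per gene was not run, since each gene had 1. The cause of these changes was not tested beyond the filters, which remove genes, and the omissions, which remove arrays. Signals near or under the negative control level limit Mmp8, Ngp, Mmp9, Clec4d and S100a8, the last with 3.94 and 4.62 in PT2385 replicates 1 and 2. They also limit Retnlg, with 4.49 in vehicle replicate 1 and 4.58 in PT2385 replicate 1.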
